A study of Caenorhabditis elegans with 154 samples.

Results

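Genes that carry carbon from stored fat to sugar were followed in single starved L1 larvae of *C. elegans*, namely *icl-1*, *pck-1*, *pck-2*, *fbp-1*, *tps-1* and *tps-2*. They were chosen by gene and sequence name, not by any measured value, though with earlier results of these data known. They are 6 of the 46766 genes in the tables after the isoform rows of each gene were summed. *pck-1* had been listed under the sequence name W05G6.6, which has no row, and was taken from W05G11.6, the name under which RefSeq gives *pck-1* and which does have one. For the other 5 genes the listed name and the RefSeq name were the same.

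The animals were L1s that hatched overnight in M9 buffer without food, at densities of 1, of 5, of 20 or of 100 eggs/μL, and each animal gave one RNA-Seq library. The *fog-2* animals carried the *q71* allele, which leaves hermaphrodites without sperm so that the strain is kept by mating and its larvae are of both sexes, which no label gives for single animals. They numbered 14, 22, 20 and 24 at the 4 densities. The N2 animals, the wild type hermaphrodite strain, numbered 13, 22, 16 and 23, which makes 154 animals in all. The study asked whether the density of starved larvae changes mRNA levels. No label says which larvae shared a tube, so that p-values measure the spread between animals and may not measure that between cultures.

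Levels are in tpm, a share of an animal's mRNA corrected for transcript length, so that levels of different genes can be set side by side. They keep no read depth, and an entry of 0 says only that the gene is listed at 0. In whole animals, fewer cells of a type and less RNA per cell cannot be told apart. Changes are given on the log2(tpm + 1) scale, which understates those of low genes. Each was tested with limma over all genes with at least 1 tpm in at least 13 animals of the fit, and passed at a Benjamini-Hochberg adjusted p under 0.05. All 6 genes were among those tested in every comparison.

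Between 7251 and 17885 genes reached 1 tpm per animal. Of the animals, 6 stood apart from the rest of their group by rank correlation, 3 at 1 egg/μL and 2 at 5 eggs/μL in *fog-2* and 1 at 1 egg/μL in N2, and 4 of them are in the comparison of 100 with 1 egg/μL. Those in *fog-2* all had the digit 1 in their column names, a digit described with *icl-1*. At 1 egg/μL they were all 3 *fog-2* animals of that digit. In *fog-2* the number of genes at 1 tpm or more at 100 eggs/μL was 13323 ± 2017 (SD, n = 24), against 10842 ± 1728 (SD, n = 14) at 1 egg/μL. The summed level of 8 oocyte and early embryo markers, of which 1 had a median of 0 at 100 eggs/μL and 7 at 1 egg/μL, had a median there of 47.1 tpm (range 4.80 to 394.6) at 100 eggs/μL, against 12.9 tpm (0 to 30.7) at 1 egg/μL. In N2 the summed level was 11.5 tpm (0.61 to 84.0) at 100 eggs/μL, against 3.45 tpm (0 to 23.7) at 1 egg/μL, with 7 of the 8 markers at a median of 0 at each density. The 4 yolk genes of the adult had summed medians of 0 to 0.47 tpm in *fog-2* and of 0 to 2.51 tpm in N2. The part that these differences have in the results below was not tested.

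A starved L1 lives on the fat and carbohydrate its mother left in the egg. Animals in general cannot turn the carbon of fatty acids into sugar, but nematodes can, since they have the glyoxylate shunt, which bypasses the steps of the citric acid cycle that release carbon dioxide. *icl-1* encodes the one enzyme of this shunt in *C. elegans*, with isocitrate lyase and malate synthase activity in the same protein. Oxaloacetate from the shunt is then taken up by phosphoenolpyruvate carboxykinase, encoded by *pck-1* and *pck-2*, and gluconeogenesis runs on to the step of fructose 1,6-bisphosphatase, encoded by *fbp-1*. The sugar can be stored as trehalose, a disaccharide that protects membranes and proteins and that serves nematodes as a circulating sugar. *tps-1* and *tps-2* encode trehalose 6-phosphate synthase, the first enzyme of its synthesis.

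All 6 are protein-coding genes. In the Ensembl annotation of WBcel235, *icl-1* (C05E4.9) lies on chromosome V at 724332 to 728004 on the minus strand and *pck-1* (W05G11.6) on chromosome III at 62888 to 66260 on the minus strand. *pck-2* (R11A5.4) is on chromosome I at 7866136 to 7872100 on the plus strand and *fbp-1* (K07A3.1) on the same chromosome at 2581015 to 2586124 on the minus strand. *tps-1* (ZK54.2) is on chromosome X at 17467121 to 17474534 on the minus strand, and *tps-2* (F19H8.1) on chromosome II at 14600902 to 14610554 on the plus strand. Exons of *pck-2* overlap those of *suro-1* on the opposite strand and exons of *tps-2* overlap those of *arl-3* on the same strand. The libraries do not mark the strand, so that reads in those overlaps cannot be assigned with certainty.

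The genes were expressed at very unequal levels, and *pck-2* stood far above the other 5. Over all 154 animals *pck-2* had a median of 3154 tpm and was the 19th highest of all 46766 genes by mean tpm. The medians of *pck-1* and *icl-1* were 93.5 and 56.1 tpm, those of *tps-2* and *tps-1* 34.7 and 26.2 tpm, and that of *fbp-1* 10.2 tpm. *fbp-1* was listed at 0 in 19 animals, *tps-2* in 4, *tps-1* in 2 and *icl-1* in 1, while both *pck* genes were above 0 in all 154 animals.

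**Figure D1:**
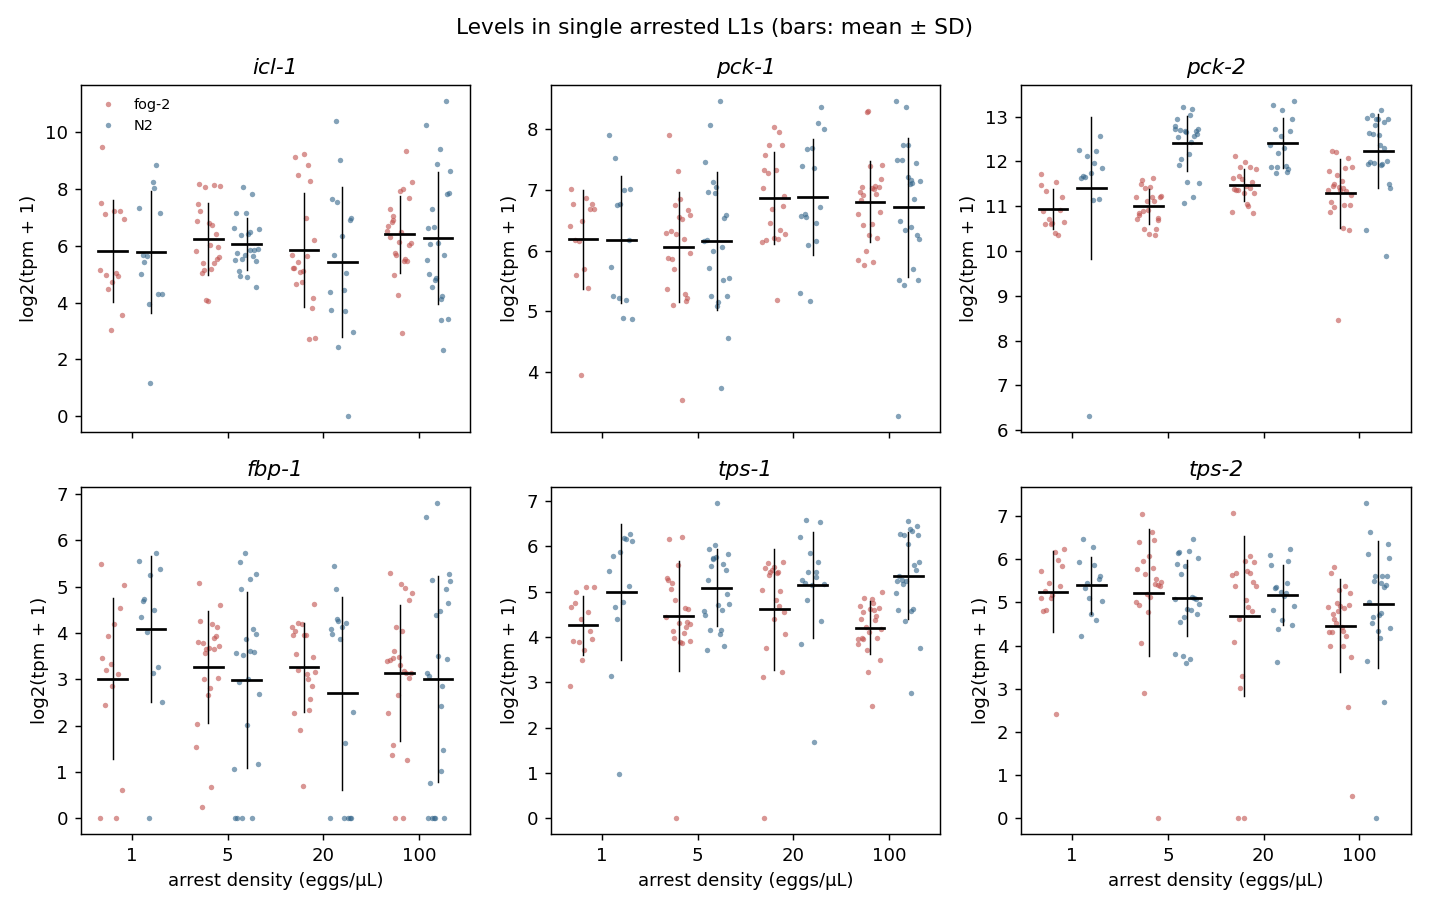
Level of each gene in every animal, as log2(tpm + 1), against the arrest density in eggs/μL, with *fog-2* (red) left of N2 (blue) at each density. Horizontal bars are means and vertical bars 1 SD over the animals of a group. The mean of *pck-2* lay lower in *fog-2* than in N2 at each density, and the spread of *icl-1* reached an SD of 2.64 in N2 at 20 eggs/μL.

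None of the 6 genes passed the test between 100 and 1 egg/μL in the fit of both strains (limma, strain as a covariate, 74 animals). Over all 16469 genes tested, 12.4% passed in this comparison, and the median log2 change was 0.24, against 0.345 for the 6 genes. *icl-1*, *pck-1* and *pck-2* had log2 changes of 0.54, 0.58 and 0.58, *tps-1* one of 0.15, and *fbp-1* and *tps-2* changes of -0.46 and -0.62. Of the 6, *pck-1*, *pck-2* and *tps-2* had an unadjusted p under 0.05. Without the animals that stood apart again none passed, with log2 changes of 0.36 for *icl-1*, 0.55 for *pck-1*, 0.46 for *pck-2*, -0.93 for *fbp-1*, -0.0022 for *tps-1* and -0.75 for *tps-2*.

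Within a strain the result was the same in number. In *fog-2* none of the 6 passed between 100 and 1 egg/μL, where 6.76% of all genes did, and *pck-1* and *tps-2* had an unadjusted p under 0.05. In N2 none passed, where 0.249% of all genes did, and *pck-2* alone had an unadjusted p under 0.05. The difference between the strains in the change with density was tested as an interaction term. It passed for none of the 6 (adjusted p from 0.837 to 0.997, limma) and for 0% of all genes, although 1114 of the 16469 had an unadjusted p under 0.05. The 2 strains thus cannot be said to differ in the response of any of these genes, nor can they be said to respond alike.

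**Figure D2:**
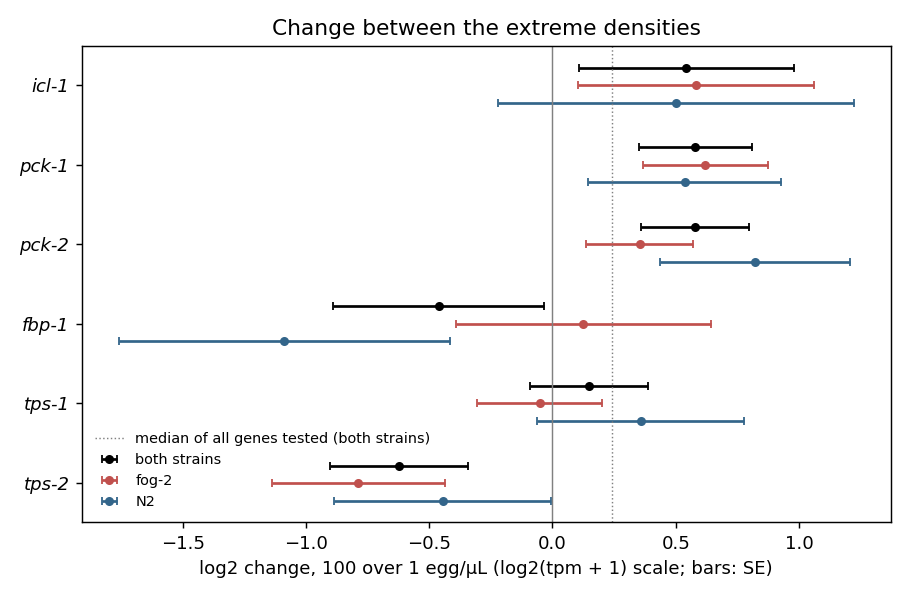
Log2 change of each gene, 100 over 1 egg/μL, from the fit of both strains (black), of *fog-2* alone (red) and of N2 alone (blue); bars are standard errors of the fits and the dotted line is the median of all genes tested in both strains, 0.24. The changes of *pck-1* and *pck-2* lie above 0 and those of *tps-2* below 0 in all 3 fits, but none passed the test.

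When the 4 densities were used together, as a slope per 10-fold increase in density over all 154 animals, *pck-1* and *pck-2* passed in the fit as planned and the other 4 genes did not. The log2 slope was 0.38 (SE 0.11, adjusted p = 0.00792) for *pck-1* and 0.25 (SE 0.085, adjusted p = 0.0314) for *pck-2* (limma). Over all genes 15.1% passed, 12.8% with a rising slope, and the median slope was 0.11. With only genes at a mean of at least 10 tpm, which holds for all 6, 284 of 7662 rose and 301 fell, with a median of 0.036. There *pck-1* passed (adjusted p = 0.0116, limma) and *pck-2* did not (adjusted p = 0.0529). In the fit as planned the slope was 0.19 (SE 0.20) for *icl-1*, -0.19 (SE 0.19) for *fbp-1*, 0.066 (SE 0.12) for *tps-1* and -0.32 (SE 0.14, adjusted p = 0.0998) for *tps-2*. With means by name digit, a digit in the column names described with *icl-1*, neither *pck* slope passed. They were 0.21 (adjusted p = 0.427, limma) for *pck-1* and 0.20 (adjusted p = 0.20) for *pck-2*. With the digit as a replicate block *pck-1* passed (0.35, adjusted p = 0.0134) and *pck-2* did not (0.21, adjusted p = 0.0723). In *fog-2* alone *pck-1* passed (0.41, SE 0.13, adjusted p = 0.031), where 8.34% of all genes passed and 7.33% with a rising slope. That call was lost with quantile normalization (0.44, adjusted p = 0.0591) and with only genes at a mean of at least 10 tpm (adjusted p = 0.052). It was also lost with means by name digit (0.38, adjusted p = 0.202) and without the animals of any one name digit (0.33 to 0.46, adjusted p from 0.0649 to 0.262). The *fog-2* slope passed for *pck-2* with the number of detected genes as a covariate (0.31, adjusted p = 0.046) and without the animals that stood apart (0.28, adjusted p = 0.0403), and for *tps-2* without name digit 1 (-0.65, adjusted p = 0.0238). The animals that stood apart included all *fog-2* animals of digit 1 at 1 egg/μL. Their *pck-2* median was 2976 tpm, against 1690 and 1583 tpm for digits 2 and 3 there. In N2 alone none of the 6 passed, where 0.947% of all genes did, none of the 6 had an unadjusted p under 0.05, and the slopes of *pck-1* and *pck-2* were 0.35 (SE 0.18) and 0.28 (SE 0.15).

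Steps between neighboring densities, averaged over the strains, gave no call in the fit as planned. None of the 18 step tests passed, and 2 had an unadjusted p under 0.05. Over all genes 0.857% passed between 5 and 1 egg/μL, 0.518% between 20 and 5 eggs/μL and 8.01% between 100 and 20 eggs/μL. The smallest adjusted p was that of *pck-1* between 20 and 5 eggs/μL, with a log2 change of 0.77 (SE 0.22, adjusted p = 0.0798, limma). The other was *pck-2* between 5 and 1 egg/μL, with 0.53 (SE 0.18, adjusted p = 0.164). Under alternatives *pck-1* passed between 20 and 5 eggs/μL with only genes at a mean of at least 10 tpm (0.77, adjusted p = 0.042) and without name digit 1 (1.03, adjusted p = 0.0126), *pck-2* between 5 and 1 egg/μL with quantile normalization (0.61, adjusted p = 0.0443), and *icl-1* between 100 and 20 eggs/μL without name digit 3 (1.49, adjusted p = 0.035).

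*icl-1*, the entry to the glyoxylate shunt, varied more between animals of a group than between densities. In *fog-2* the median was 33.1 tpm (range 7.11 to 709.0) at 1 egg/μL, 62.6 tpm (range 15.8 to 290.0) at 5, 39.1 tpm (range 5.52 to 597.2) at 20 and 82.7 tpm (range 6.70 to 651.2) at 100 eggs/μL. In N2 it was 49.2 tpm (range 1.26 to 461.4) at 1 egg/μL, 57.0 tpm (range 22.2 to 270.1) at 5, 40.9 tpm (range 0 to 1329) at 20 and 65.5 tpm (range 4.01 to 2204) at 100 eggs/μL. The ranges of all groups overlapped, and the medians did not run in one direction over the densities in either strain. Between 100 and 1 egg/μL the log2 change was 0.58 (SE 0.48, adjusted p = 0.521) in *fog-2* and 0.50 (SE 0.72, adjusted p = 0.823) in N2 (limma). In *fog-2*, 21 of 24 animals at 100 eggs/μL lay above the median at 1 egg/μL, yet only 8 of 14 at 1 egg/μL lay below the median at 100. The 3 highest values of all, 2204, 1329 and 1215 tpm, were single N2 animals at 100, 20 and 100 eggs/μL. The 2 of them at 100 eggs/μL also had the lowest *pck-2* values of that group, 949.6 and 1415 tpm. Their median rank correlations with their group, 0.496 and 0.515, were the lowest of all animals. They did not count as standing apart, since the limit was 0.432 in that group, against 0.694 in *fog-2* at 1 egg/μL. Over all 154 animals, centered within groups, Pearson's r of *icl-1* with *pck-2* was -0.0245.

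The column names of the animals hold a digit from 1 to 3 between the density and the animal number, which no label explains. In *fog-2* the level of *icl-1* moved with this digit. Animals of digit 3 had medians of 143.5, 268.7, 409.0 and 180.7 tpm at 1, 5, 20 and 100 eggs/μL, those of digit 2 had 25.4, 83.2, 24.9 and 55.1 tpm, and those of digit 1 had 31.6, 38.2, 39.1 and 73.4 tpm. At 20 eggs/μL the 6 animals of digit 3 lay between 71.8 and 597.2 tpm and the 6 of digit 1 between 17.0 and 49.9 tpm, without overlap. In N2 digit 3 had medians of 40.3, 52.6, 117.7 and 30.8 tpm and was the highest of the 3 digits only at 20 eggs/μL. *icl-1* was not alone in this. The mean log2(tpm + 1) of *fbp-1* in *fog-2* rose from digit 1 to 2 to 3 at each density. It was 1.07, 2.80 and 4.17 at 1 egg/μL and 2.99, 3.24 and 3.57 at 20 eggs/μL. In N2 it had this order only at 20 eggs/μL. The digits were looked at after the values were known, and no test was made of them.

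**Figure D3:**
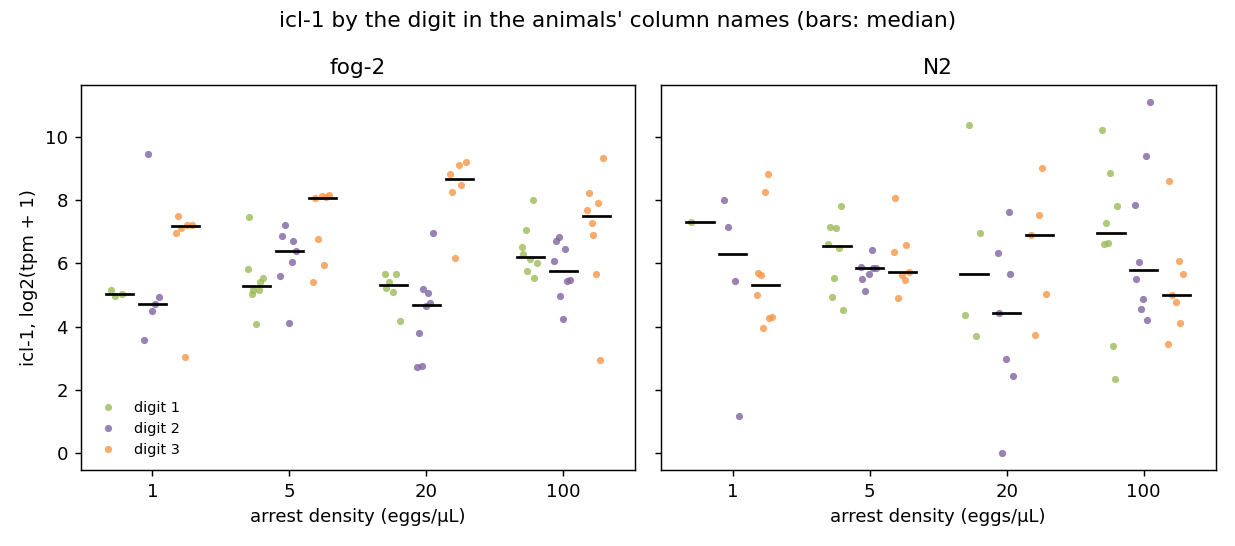
*icl-1* in every animal, as log2(tpm + 1), against the arrest density in eggs/μL in *fog-2* (left) and N2 (right), colored by the digit in the animal's column name; bars are medians. In *fog-2* digit 3 has the highest median at each density, 143.5 to 409.0 tpm, while in N2 it does so only at 20 eggs/μL.

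*pck-1* was higher at the upper 2 densities than at the lower 2 by median in both strains. In *fog-2* the median was 86.6 tpm (range 14.5 to 128.4) at 1 egg/μL, 74.1 tpm (range 10.5 to 238.5) at 5, 111.7 tpm (range 35.3 to 262.1) at 20 and 120.1 tpm (range 53.3 to 316.1) at 100 eggs/μL. In N2 it was 71.5 tpm (range 28.4 to 239.2) at 1 egg/μL, 68.0 tpm (range 12.3 to 350.8) at 5, 99.9 tpm (range 35.0 to 328.8) at 20 and 136.4 tpm (range 8.64 to 353.8) at 100 eggs/μL. In *fog-2*, 10 of 24 animals at 100 eggs/μL lay above the highest animal at 1 egg/μL, and 13 of 14 animals at 1 egg/μL lay below the median at 100. The log2 change of 100 over 1 egg/μL was 0.58 (SE 0.23, adjusted p = 0.0826) in both strains, 0.62 (SE 0.25, adjusted p = 0.125) in *fog-2* and 0.54 (SE 0.39, adjusted p = 0.606) in N2 (limma). The change in both strains passed without the N2 animal at 100 eggs/μL that had 8.64 tpm (0.65, adjusted p = 0.0286) and without the N2 animal at 1 egg/μL that had 239.2 tpm (0.65, adjusted p = 0.0483). Without the animals of name digit 3 it was 0.016 (adjusted p = 0.99) for *pck-1*.

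The slope of *pck-1* in both strains depended on which animals by name digit were included. It was 0.52 (adjusted p = 0.00163) without digit 1, 0.37 (adjusted p = 0.0809) without digit 2 and 0.20 (adjusted p = 0.457) without digit 3 (limma). At 1 egg/μL the N2 animals were 1, 4 and 8 of digits 1, 2 and 3, and their medians were 239.2, 127.6 and 36.7 tpm. At 100 eggs/μL they were 8, 8 and 7, with medians of 79.2, 154.9 and 114.6 tpm. By median, *pck-1* of digit 1 was thus lower at 100 than at 1 egg/μL in N2, where a single animal stands for the low density, and that of digit 3 was higher. Without the animals that stood apart the slope was 0.38 (adjusted p = 0.0112).

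*pck-2*, the other carboxykinase gene, had the narrowest spread of the 6 on the log2 scale in most groups, and its level differed between the strains. In *fog-2* the median was 1802 tpm (range 1319 to 3357) at 1 egg/μL, 2063 tpm (range 1315 to 3148) at 5, 2743 tpm (range 1828 to 4459) at 20 and 2678 tpm (range 348.2 to 4834) at 100 eggs/μL. In N2 it was 3402 tpm (range 78.5 to 6080) at 1 egg/μL, 6354 tpm (range 2138 to 9566) at 5, 5168 tpm (range 3427 to 10480) at 20 and 5248 tpm (range 949.6 to 9124) at 100 eggs/μL. The lowest density had the lowest median in each strain, and the medians at the other densities had no common order. In N2, 11 of 23 animals at 100 eggs/μL lay above the highest animal at 1 egg/μL, and 12 of 13 at 1 egg/μL below the median at 100. The log2 change of 100 over 1 egg/μL was 0.58 (SE 0.22, adjusted p = 0.0663) in both strains, 0.35 (SE 0.22, adjusted p = 0.347) in *fog-2* and 0.82 (SE 0.38, adjusted p = 0.439) in N2 (limma).

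The calls for *pck-2* with density depended on single animals. The comparison of 100 with 1 egg/μL in both strains passed when taken from the fit of all animals in 8 groups (0.59, adjusted p = 0.0135, limma), and without any one of 3 animals at 100 eggs/μL, the *fog-2* animal with 348.2 tpm (0.64, adjusted p = 0.0272) and the N2 animals with 949.6 tpm (0.63, adjusted p = 0.0355) and 1415 tpm (0.62, adjusted p = 0.0445). The slope, in turn, no longer passed without the N2 animal at 1 egg/μL that had 78.5 tpm (0.17, adjusted p = 0.0884), an alternative chosen after seeing the data, and without all 6 animals that stood apart (0.19, adjusted p = 0.0512). Without digit 3 the slope was 0.00050 (adjusted p = 0.998) and the log2 change of 100 over 1 egg/μL in both strains 0.15 (adjusted p = 0.839). That N2 animal also had 0.98 tpm of *tps-1*, the lowest of its group, and 0 tpm of *fbp-1*.

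Within each animal *pck-2* was above *pck-1*, in all 154. The median ratio of *pck-2* to *pck-1*, taken of tpm + 1, was 22.8, 30.9, 23.6 and 23.2 at 1, 5, 20 and 100 eggs/μL in *fog-2* and 40.9, 68.1, 43.5 and 43.8 in N2. It was highest at 5 eggs/μL in both strains, where *pck-1* had its lowest median. Another gene of this family in the tables, *pck-3*, had a mean of 0.112 tpm and was not among the genes tested.

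*fbp-1*, the bisphosphatase step of gluconeogenesis, was the lowest of the 6 genes and was listed at 0 more often than the other 5. In *fog-2* the median was 8.63 tpm (range 0 to 43.6) at 1 egg/μL, 11.8 tpm (range 0.19 to 32.6) at 5, 9.19 tpm (range 0.63 to 23.7) at 20 and 9.22 tpm (range 0 to 38.5) at 100 eggs/μL. In N2 it was 21.5 tpm (range 0 to 51.9) at 1 egg/μL, 10.7 tpm (range 0 to 52.2) at 5, 14.2 tpm (range 0 to 42.7) at 20 and 7.75 tpm (range 0 to 110.8) at 100 eggs/μL. It was listed at 0 in 5 of 23 N2 animals at 100 eggs/μL, in 5 of 16 at 20, in 4 of 22 at 5 and in 1 of 13 at 1 egg/μL. The log2 change of 100 over 1 egg/μL was 0.13 (SE 0.52, adjusted p = 0.927) in *fog-2* and -1.09 (SE 0.67, adjusted p = 0.539) in N2, and the difference between these changes was 1.21 (SE 0.85, adjusted p = 0.837 for the interaction, limma). *fbp-1* has 2 transcript rows, of which the row K07A3.1a held the larger part of the level in every group by mean tpm, such as 15.3 against 4.37 tpm in N2 at 100 eggs/μL.

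The trehalose synthase genes had similar levels, and neither passed with density in the fits as planned. Whether their changes differed from each other was not tested. In *fog-2* the median of *tps-1* was 18.4 tpm (range 6.54 to 33.4) at 1 egg/μL, 19.9 tpm (range 0 to 73.1) at 5, 31.6 tpm (range 0 to 49.5) at 20 and 18.8 tpm (range 4.59 to 30.7) at 100 eggs/μL. In N2 it was 43.1 tpm (range 0.98 to 75.9) at 1 egg/μL, 33.7 tpm (range 12.2 to 122.9) at 5, 38.3 tpm (range 2.21 to 94.3) at 20 and 39.4 tpm (range 5.76 to 93.4) at 100 eggs/μL. The groups overlapped widely within each strain. Between 100 and 1 egg/μL the log2 change was 0.15 (SE 0.24, adjusted p = 0.762, limma) in both strains, -0.05 in *fog-2* and 0.36 in N2, and the sign in both strains turned in 5 of 20 alternatives without passing in any.

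*tps-2* had the lowest log2 change of the 6 between the extreme densities in the fit of both strains. In *fog-2* the median was 39.2 tpm (range 4.30 to 74.8) at 1 egg/μL, 42.7 tpm (range 0 to 131.8) at 5, 40.6 tpm (range 0 to 133.8) at 20 and 24.4 tpm (range 0.44 to 55.7) at 100 eggs/μL. In N2 it was 42.5 tpm (range 17.7 to 87.2) at 1 egg/μL, 32.9 tpm (range 11.04 to 87.1) at 5, 36.4 tpm (range 11.3 to 74.8) at 20 and 40.2 tpm (range 0 to 156.5) at 100 eggs/μL. In *fog-2*, 21 of 24 animals at 100 eggs/μL lay below the median at 1 egg/μL, and 13 of 14 at 1 egg/μL above the median at 100, while in N2 the corresponding counts were 13 of 23 and 7 of 13. The log2 change of 100 over 1 egg/μL was -0.62 (SE 0.28, adjusted p = 0.136) in both strains, -0.79 (SE 0.35, adjusted p = 0.167) in *fog-2* and -0.45 (SE 0.44, adjusted p = 0.724) in N2 (limma). The slope in both strains passed without the animals of digit 1 (-0.48, adjusted p = 0.0124).

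Within an animal neither synthase gene was always the higher one. The median ratio of *tps-1* to *tps-2*, taken of tpm + 1, was 0.436, 0.568, 0.728 and 0.799 at 1, 5, 20 and 100 eggs/μL in *fog-2* and 0.722, 0.864, 1.18 and 1.26 in N2. *tps-1* was above *tps-2* in 2 of 14, 6 of 22, 8 of 20 and 8 of 24 *fog-2* animals and in 5 of 13, 9 of 22, 10 of 16 and 14 of 23 N2 animals. The ratio thus had medians in the order of the densities in both strains, which was not tested.

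Between the strains, *pck-2* and *tps-1* were lower in *fog-2* than in N2 and the other 4 genes did not pass. Averaged over the 4 densities, the log2 difference, *fog-2* over N2, was -0.94 (SE 0.12, adjusted p = 2.38e-11) for *pck-2* and -0.76 (SE 0.18, adjusted p = 0.000186) for *tps-1* (limma, 154 animals in 8 groups), which is 0.521 and 0.589 times the N2 level on the tpm + 1 scale. Over all 18911 genes 38.4% passed and 7.15% were lower in *fog-2*, and the median difference was 0.22. The difference was 0.19 (SE 0.29) for *icl-1*, -0.0033 (SE 0.16) for *pck-1*, -0.02 (SE 0.28) for *fbp-1* and -0.25 (SE 0.21) for *tps-2*. At each density the median of *pck-2* and that of *tps-1* was lower in *fog-2*. The calls for *pck-2* and *tps-1* were kept in all 16 alternatives, with a log2 difference from -1.17 to -0.78 for *pck-2* and from -1.13 to -0.58 for *tps-1*. Without the animals that stood apart the differences were -1.09 and -0.87.

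Each strain was a dilution series of its own, so that the strain and the experiment cannot be told apart. Summed tissue markers also differed in median, in either direction, without a test. The summed level of 5 intestinal markers had medians of 655.9 to 838.8 tpm over the densities in *fog-2* and of 1040 to 1229 tpm in N2, and that of 5 body muscle markers 1489 to 1851 tpm in *fog-2* and 2116 to 3332 tpm in N2. The summed level of 5 hypodermal markers ran the other way, with medians of 144.8 to 218.0 tpm in *fog-2* and of 93.9 to 116.7 tpm in N2. Of these 5, *bli-1* and *rol-6* had a median of 0 in every group and *dpy-7* in some groups of each strain, so that the sum rests on few genes. The summed oocyte and early embryo markers were also higher in *fog-2* at each density. For 5 neuronal markers the medians were 307.0 to 420.1 tpm in *fog-2* and 367.1 to 447.5 tpm in N2. Of the muscle markers *hlh-1* had a median of 0 in N2 at 100 eggs/μL. All 5 intestinal markers had a median above 0 in every group, and their summed level in single animals was 211.7 to 1601 tpm in *fog-2* and 426.6 to 2817 tpm in N2. Their part in the lower *pck-2* and *tps-1* of *fog-2* was not tested.

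The enzymes around these steps were described from lists of their genes, in the same comparison of 100 with 1 egg/μL in both strains, where 10 of the 74 listed genes tested passed, beside the 12.4% of all genes. Of 12 other genes of gluconeogenic entry and of the steps that run in both directions, 3 rose, with a list median of 0.44. They were *gpd-3* (0.53, adjusted p = 0.0114) and *gpd-2* (0.46, adjusted p = 0.0284), which encode glyceraldehyde 3-phosphate dehydrogenase, and *aldo-1* (0.48, adjusted p = 0.0453), which encodes aldolase (limma). *gpd-2* and *gpd-3* are near-identical neighbors that may share reads, so their values are uncertain for each gene alone. Of 7 genes for the glycolytic steps that run one way only, 1 fell and none rose, with a median of 0.20. It was *pyk-2*, a pyruvate kinase, whose reaction uses up the phosphoenolpyruvate that the carboxykinases make, with a log2 change of -1.50 (SE 0.23, adjusted p = 3.6e-06). Within a strain the change of *pyk-2* was -1.78 (adjusted p = 0.000311, limma) in *fog-2* and -1.21 (adjusted p = 0.147) in N2. In N2 alone no gene of any list passed, where 0.249% of all genes did.

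Of 6 genes for the second step of trehalose synthesis (*gob-1*, the trehalose 6-phosphate phosphatase) and for its breakdown (the trehalases *tre-1* to *tre-5*), none passed. Their median of 0.63 was above that of all genes, and *tre-3* came closest with 0.95 (adjusted p = 0.10, limma). The list median was 0.49 with quantile normalization and 0.135 with the number of detected genes as a covariate. With that covariate *tre-3* had 0.37 (adjusted p = 0.711). Of 23 genes of the citric acid cycle 2 rose, with a median of 0.08, namely *mev-1*, a subunit of succinate dehydrogenase (0.81, adjusted p = 0.00267), and *idhg-2*, a subunit of isocitrate dehydrogenase (1.24, adjusted p = 0.0163). Of 5 genes of pyruvate dehydrogenase and its regulators none passed, with a median of 0.0063. Of 5 glycogen genes 1 rose, the glycogenin *gyg-2* (0.98, adjusted p = 0.0297), with a median of 0.39. Of 3 genes listed under glycerol entry 1 rose, the glycerol 3-phosphate dehydrogenase *gpdh-2* (1.11, adjusted p = 0.0183, limma), with a median of 1.11. The other genes listed there, *gpdh-1* (1.17, adjusted p = 0.0506) and *R11F4.1* (0.48, adjusted p = 0.357), did not pass. These mRNA levels do not tell whether glycerol was made or used.

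Of 13 genes of fatty acid oxidation, which feeds the glyoxylate shunt, 2 rose, with a median of 0.45. They were the carnitine palmitoyltransferase genes *cpt-4* (1.09, adjusted p = 0.0311) and *cpt-5* (0.90, adjusted p = 0.0213), at means of only 3.18 and 2.15 tpm. Of the 74 listed genes tested 9 rose and 1 fell, while of all 16469 genes tested 1700 rose and 338 fell. With quantile normalization, which moved the median change of all genes from 0.24 to 0.035, *gpd-2*, *gpd-3*, *idhg-2* and *mev-1* passed as higher and *pyk-2* as lower. With the number of detected genes as a covariate, which moved it to -0.02, *mev-1* alone passed as higher, and *pyk-2* as lower. The list medians moved with that covariate too, such as to 0.08 for glycogen and 0.14 for fatty acid oxidation.

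**Figure D4:**
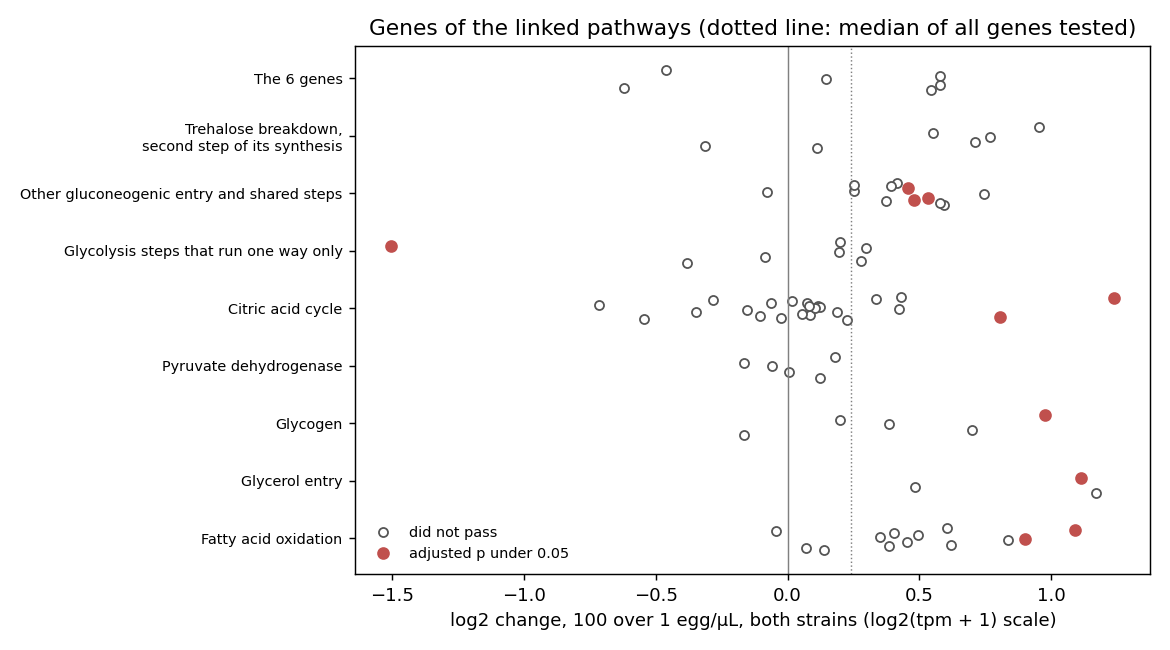
Log2 change of 100 over 1 egg/μL in both strains for each gene tested of the 6 and of the linked lists, 1 row per list and 1 point per gene. Filled points passed (adjusted p under 0.05) and the dotted line is the median of all genes tested, 0.24. None of the 6 is filled, *pyk-2* lies alone at -1.50, and the 9 other filled points lie between 0.46 and 1.24.

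The 6 genes varied from animal to animal with little relation to each other. With the values centered within each of the 8 groups, the highest correlation between any pair was that of *icl-1* with *fbp-1* (Pearson's r = 0.317 over 154 animals, with both values of an animal from the same library). The values were not centered by name digit. In *fog-2* digit 3 had the highest mean log2(tpm + 1) of both genes at each density, and its part in this r was not tested. For *pck-1* and *pck-2* the r was 0.155 and for *tps-1* and *tps-2* 0.0031. These are descriptions across animals and carry no test.

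For each of the 6 the genes with the most similar pattern were then sought among the 7661 genes with a mean of at least 10 tpm, by the same r. For *icl-1* they were *adh-1*, an alcohol dehydrogenase (0.562), and the actin genes *act-3* (0.543) and *act-1* (0.536), which are near-identical copies. For *pck-1* they were *gpd-2* (0.578), *gpd-3* (0.571) and the alpha tubulin *tba-1* (0.543). For *pck-2* they were the aspartyl protease *asp-4* (0.739), *fah-1* (0.687), a fumarylacetoacetase of tyrosine breakdown, and the cytochrome P450 gene *cyp-32B1* (0.686). By rank the *pck-2* values were 0.543, 0.711 and 0.566.

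For *tps-1* the most similar genes were *pcp-1* (0.572), *aagr-1* (0.545) and *nrfl-1* (0.538). For *tps-2* they were *lin-59* (0.48), *fbxa-167* (0.472) and *nhr-154* (0.441), and for *fbp-1* *letm-1* (0.443), *hsf-1* (0.435) and *vha-12* (0.382). By rank the values were 0.442, 0.487 and 0.436 for *tps-1*, 0.394, 0.405 and 0.354 for *tps-2*, and 0.367, 0.239 and 0.325 for *fbp-1*. With the number of genes at 1 tpm or more, r was 0.288 for *tps-1*, 0.175 for *tps-2* and 0.293 for *fbp-1*. The number of genes with r over 0.5 was 45 for *pck-2*, 11 for *pck-1*, 6 for *icl-1* and for *tps-1*, and 0 for *fbp-1* and *tps-2*.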

How the data were processed

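Single L1 animals were lysed, amplified with Smart-Seq2 and tagmented. After removal of rRNA reads and of PCR duplicates the authors mapped with RSEM, and they deposited tpm values, 47639 transcript rows per strain. The submitters' processing notes name Bowtie, RSEM and the ce11 build, with versions not given in the sources used here. Of the columns, 146 were matched to 1 labelled animal and 8 *fog-2* columns at 1 egg/μL to their group only. Rows were summed by sequence name.

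Values were taken as log2(tpm + 1) and tested with limma 3.58.1 (mean-variance trend) in R 4.3.3 with the data.table package (1.17.8). Python 3.11.15, pandas 2.3.3, numpy 2.4.6 and matplotlib 3.10.9 were used for tables and figures. The fits were 100 against 1 egg/μL (both strains with strain as a covariate, each strain, and the interaction), all animals in 8 groups for the steps and the strains, and slopes on log10 density. Of these fits, only that of 100 against 1 egg/μL in both strains was tested on simulated data. In those data the values of each gene were shuffled between animals, so that no spread between cultures was kept. An animal stood apart when its median rank correlation with its group was more than 4 scaled median absolute deviations below the median of its group.

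The 6 genes, the lists and the alternatives were chosen with earlier results of these data known. Named besides the 6 are up to 4 genes past the threshold per list and direction, and the 3 most similar genes by r. Other genes named were chosen after their values were seen. Alternatives changed the pseudocount, filter, scaling, covariates, animals, name digit, isoforms and variance model. Aligned reads per animal came from the study's read table and served only as a covariate and a filter in alternatives.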

Additional observations from a re-analysis of the deposited data

How the results depend on the processing

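Of the calls for the 6 genes, those of *pck-2* and *tps-1* between the strains held in every alternative run, and those of the slopes over density in both strains did not. The slope of *pck-2* no longer passed with only genes at a mean of at least 10 tpm (0.25, adjusted p = 0.0529, limma), with only animals of at least 500000 aligned reads (0.21, adjusted p = 0.122), without the animals that stood apart (0.19), with means by name digit (0.20, adjusted p = 0.20), without name digit 3 (0.00050), and, chosen after seeing the data, without the N2 animal at 1 egg/μL with the lowest *pck-2* (0.17). The slope of *pck-1* no longer passed with means by name digit (0.21, adjusted p = 0.427), without name digit 2 (0.37) and without name digit 3 (0.20). The cause was not tested.

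In both strains, besides the steps, some values passed only under an alternative. They were the change of *pck-1* between 100 and 1 egg/μL without name digit 1 (0.82, adjusted p = 0.03), that of *pck-2* from the fit of all animals in 8 groups (0.59), the slope of *tps-2* without name digit 1 (-0.48), and the difference of *tps-2* between *fog-2* and N2 with quantile normalization (-0.53, adjusted p = 0.0278). Leaving out 1 animal at a time, the change between 100 and 1 egg/μL ran from 0.49 to 0.65 for *pck-1* and from 0.37 to 0.64 for *pck-2*, and passed in 2 and 3 of 74 fits. Without name digit 3 it was 0.016 and 0.15. No call was reversed.

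With the name digit as a replicate block, the slope of *pck-2* did not pass (0.21, adjusted p = 0.0723) and that of *pck-1* did (0.35, adjusted p = 0.0134), and the slope in all genes gave 2317 higher and 411 lower calls, against 2421 and 442 without the block. Animals of the same digit at different densities deviated together (r over 0.1) in 13 of 18 pairs of groups in *fog-2* and 6 of 18 in N2, and animals of different digits in 5 of 36 and 4 of 36. Since not every pair of the same digit did so and no label explains the digit, it was not taken to pair the animals. The strain difference has no such block, since the digit is nested in the strain.

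Over all genes, 1700 were higher and 338 lower at 100 than at 1 egg/μL. The counts were 308 and 230 with only genes at a mean of at least 10 tpm, 402 and 391 with quantile normalization, 156 and 280 with detected genes as a covariate, 502 and 87 with means by name digit, and 359 and 262, 756 and 160, and 180 and 57 without digits 1, 2 and 3. Low *fbp-1*, *tps-1* and *tps-2* values limit what the spread can show.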
